A study of Mus musculus with 5 samples.

Results

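Cytosolic ribosomal protein transcripts were followed in single cells of mouse kidneys during obstruction of the ureter and after its reversal. The set held 84 of the 28692 genes in the droplet tables, 53 of the large and 31 of the small ribosomal subunit. They were taken by symbol alone (Rpl or Rps followed by a number, and Rplp0 to Rplp2), without names marked as pseudogenes, so no measured value chose them. Rpl6l, a large subunit member by its symbol, is annotated as a processed pseudogene in GENCODE M21, the other members as protein coding. Each group was 1 droplet library with unique molecular identifiers (UMIs), pooled from 3 C57/BL6 mice aged 8 weeks. The groups were sham surgery (day 0), day 2 and day 7 of unilateral ureteric obstruction, and 7 days after the obstruction was reversed (experimental day 14). Digestion was cold, and DAPI staining served to collect living cells, so cells lost or killed before the sort are not represented. Where 4 values are given without labels, they are in the order sham, day 2, day 7, reversed, and 3 values start with day 2. With 1 library per group there is no replicate check of any difference between time points. The intervals given are exact Clopper-Pearson or conditional binomial 95% intervals and cover counting error only. A further sample held 768 wells of Smart-seq2, a plate method that reads whole transcripts, with all time points mixed.

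A ribosome is built from ribosomal RNA and one copy of most of these proteins, apart from the stalk proteins Rplp1 and Rplp2, which are present in several copies. Their transcripts usually start with a run of pyrimidines directly at the cap, the 5′ terminal oligopyrimidine (TOP) motif, through which mTORC1 and the binding protein LARP1 control their translation and stability together. The share of a cell's transcripts that codes for ribosomal proteins is known to be high in lymphocytes and in growing cells and low in neutrophils. Several members have a close relative made from another gene, among them Rps27l beside Rps27, Rpl22l1 beside Rpl22 and Rpl36al beside Rpl36a. Rps27l, described as a p53 target, codes for a protein that can replace Rps27 in the small subunit.

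The start sites of members whose values are described here are shown because they illustrate how the TOP sequence differs within the set. Each window runs from 10 bases before to 20 bases from the annotated start (RefSeq, GRCm38.p6), and capitals mark the longest pyrimidine run in it. Rps27l is the member whose share differed most between cell classes, Rps27 is its partner, and Rpl12, Rpl22l1, Rpl28 and Rpl38 are members described below.
Rps27, minus strand, chr3:90213629-90213658: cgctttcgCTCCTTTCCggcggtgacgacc
Rps27l, plus strand, chr9:66946076-66946105: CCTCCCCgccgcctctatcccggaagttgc
Rpl12, plus strand, chr2:32961702-32961731: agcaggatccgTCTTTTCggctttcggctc
Rpl22l1, plus strand, chr3:28805498-28805527: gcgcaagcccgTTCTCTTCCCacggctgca
Rpl28, plus strand, chr7:4792955-4792984: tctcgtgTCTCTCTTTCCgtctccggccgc
Rpl38, plus strand, chr11:114668570-114668599: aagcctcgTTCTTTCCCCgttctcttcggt
In Rps27, Rpl28 and Rpl38 the run crossed the annotated start, in Rpl12 and Rpl22l1 it began just after it, and in Rps27l it lay before it. A promoter window was found for 63 of the 84 members. Within the 50 bases around the start, on the strand of the gene, CTTTCC was found in 19.0% of members and in 2.79% of the 26962 other genes, CTCTTTC in 12.7% and 0.768%, and CTTTTC in 7.94% and 2.00%. A pyrimidine run of at least 6 bases near the start was found in 50.8% of members and in 23.9% of other genes, and one of at least 8 bases in 38.1% and 11.3%. Over the whole window of 300 bases and on either strand, CCGGAAG, a core bound by ETS family factors, was found in 39.7% and 9.86%. AAGATGGC, the core of the YY1 motif, was found in 9.52% and 3.17%, the E-box CACGTG in 9.52% and 8.09%, and the TATA-box sequence TATAAA in 11.1% and 15.7%. CTCTTTC and CTTTCC can overlap by up to 5 bases, and a match describes the letters only.

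All 84 members had UMIs in the kept cells, and 10300222 UMIs in all came from them. Kept cells numbered 3933 (sham), 2207 (day 2), 4447 (day 7) and 3236 (reversed), with a median of 2480.5 to 5668 UMIs per deposited cell. The libraries differed in the share of mitochondrial UMIs, whose median per deposited cell was 40.6% (sham), 16.2% (day 2), 3.00% (day 7) and 14.0% (reversed). Ribosomal protein content is therefore given as a percentage of UMIs that are not mitochondrially encoded. Of 16730 distinct cell barcodes, 146 occurred in more than 1 library. Cells were assigned to classes by marker genes, each called by its name with "-like". Among the 10 genes that led each of the 8 classes used most, 3 to 6 were markers of that class, such as Slc34a1 in proximal tubule-like and Aqp2 in collecting duct principal-like cells, where Calb1, a marker of the distal convoluted tubule, was also present. Cells with markers of several classes, possible doublets among them, were left out. They made up 1.53% of kept cells (sham), 4.71% (day 2), 14.8% (day 7) and 7.39% (reversed).

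Ribosomal protein transcripts took up the largest share of RNA in lymphocyte-like cells and, by the mean over libraries, the smallest in intercalated-like cells among the 8 main classes. The mean over libraries was 8.13% ± 0.581 (SD, n = 4 libraries) in intercalated-like cells, the acid-base regulating cells of the collecting duct. It was 9.85% ± 1.66 in loop of Henle-like, 9.90% ± 2.93 in collecting duct principal-like and 10.1% ± 1.00 in proximal tubule-like cells (SD, n = 4 each). The last 3 classes overlapped in range and are not separated beyond their spread, and intercalated-like cells overlapped with all of them but proximal tubule-like cells. Endothelial-like cells stood at 11.7% ± 1.91 (SD, n = 4) and injured tubule-like cells, marked by genes such as Lcn2 and Krt8, at 13.2% ± 0.699 (SD, n = 3), also with overlapping ranges. Mononuclear phagocyte-like cells reached 19.0% ± 1.77 (SD, n = 4) and T cell-like cells 26.6% ± 3.55 (SD, n = 3). The lowest phagocyte value, 17.5%, lay above the highest value of any tubule or endothelial class, 14.2%, and the lowest T cell value, 24.3%, above the highest phagocyte value, 21.4%.

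**Figure D1:**
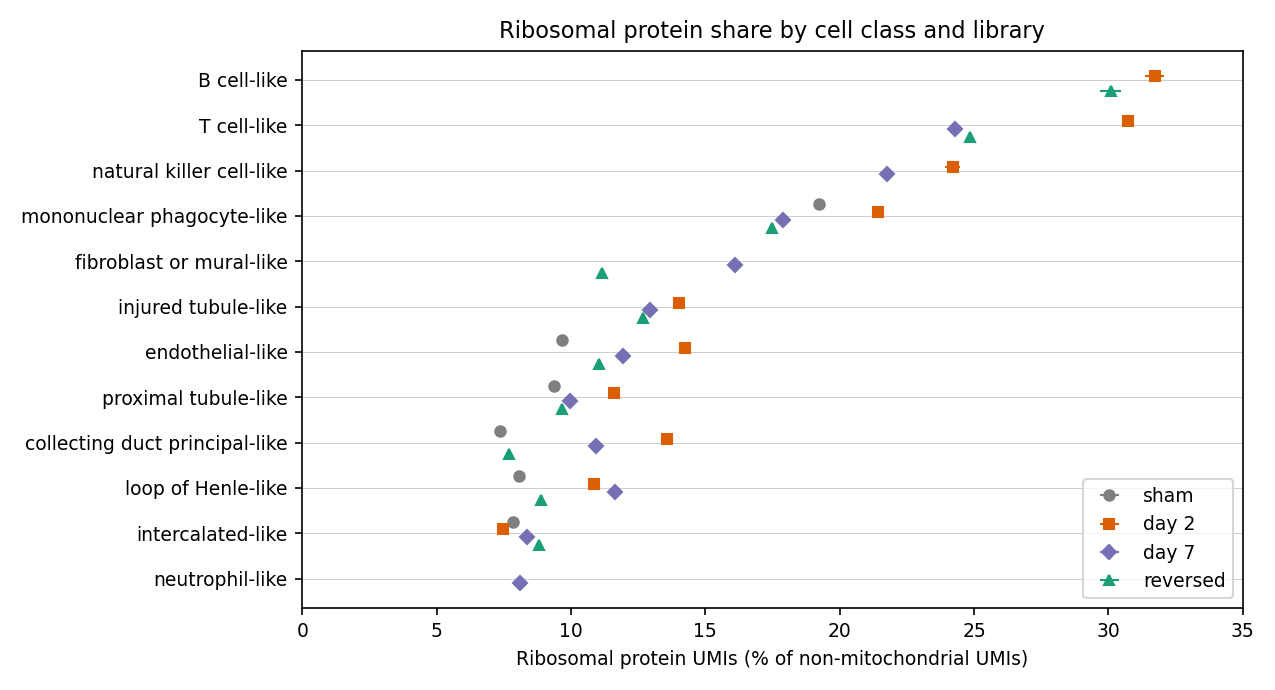
Percentage of non-mitochondrial UMIs from ribosomal protein genes (x axis) in each cell class (rows), with 1 point per library of at least 20 cells of the class and bars for the 95% counting interval. The T and B cell-like points lie above 24%, the intercalated-like points below 9%, and the day 2 point is the highest in most rows.

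Of the 28 pairs of these classes, 23 differed in the same direction in every library that held both. The difference between T cell-like and mononuclear phagocyte-like cells was 7.70 percentage points, in 3 of 3 libraries, and that between phagocyte-like and proximal tubule-like cells 8.85 points, in 4 of 4. No pair passed a threshold of 0.05. The smallest p that the exact two-sided sign-flip test over libraries allows is 1 in 8 with 4 libraries and 1 in 4 with 3, and the smallest value adjusted over the 28 pairs (Benjamini-Hochberg) was 0.304. Classes with fewer cells extended the range. B cell-like cells had 31.7% on day 2 and 30.1% after reversal, from 20 cells each, and natural killer cell-like cells 24.2% on day 2 and 21.8% on day 7. Neutrophil-like cells had 8.11% on day 7, from 25 cells. Fibroblast or mural-like cells had 16.1% on day 7 and 11.2% after reversal. Erythroid-like cells, which hold mostly globin RNA, numbered 1 on day 2, 11 on day 7 and 10 after reversal, and their share was 0.981% to 2.88%.

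On day 2 of obstruction the ribosomal protein share was higher than in sham in 5 of 6 classes that could be compared, most of all in collecting duct principal-like cells. In these cells, which take up water and sodium, the share was 7.38% (sham), 13.6% (day 2), 10.9% (day 7) and 7.71% (reversed). The log2 ratio of day 2 against sham was 0.88 (95% interval 0.86 to 0.90). The day 2 and day 7 libraries were high and the reversed library was near sham. Endothelial-like cells had 9.68%, 14.2%, 12.0% and 11.1%, a log2 ratio of 0.56 on day 2 against sham. Loop of Henle-like cells had 8.05%, 10.8%, 11.6% and 8.87%, with day 7 the highest and a day 2 log2 ratio of 0.43. Proximal tubule-like cells had 9.36%, 11.6%, 9.98% and 9.65%, with a day 2 log2 ratio of 0.31, and only the day 2 library stood apart. Mononuclear phagocyte-like cells had 19.2%, 21.4%, 17.9% and 17.5%, a day 2 log2 ratio of 0.15. It was 0.014 without the 50 most abundant other genes and 0.32 as the median over cells, so its size depends on the measure. The phagocyte libraries also compare different mixtures. C1q macrophage-like cells, a subclass, were 30 of 67 phagocyte-like cells in sham, 194 of 548 on day 2 and 1630 of 2409 on day 7. Intercalated-like cells went the other way, with 7.86% in sham and 7.47% on day 2 (log2 ratio -0.07, 95% interval -0.09 to -0.05), and then 8.38% and 8.80%. That small difference had the opposite sign when all UMIs formed the denominator (log2 ratio 0.14) or the 50 most abundant other genes were left out (0.14).

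The mitochondrial share moved with these groups. Its median in collecting duct principal-like cells was 26.8%, 15.2%, 9.67% and 22.3%, and in proximal tubule-like cells 34.9%, 24.2%, 21.1% and 31.3%. In endothelial-like cells it was low throughout, 4.25%, 3.29%, 2.48% and 3.01%. Within bands of the mitochondrial share, the day 2 library was above sham where both had at least 20 cells, except in intercalated-like cells, which had 7.07% in sham (24 cells) and 4.43% on day 2 (20 cells) at 25 to 50%. Among collecting duct principal-like cells with 10 to 25% mitochondrial UMIs, the share was 7.89% in sham (25 cells) and 12.7% on day 2 (30 cells). In the same band it was 8.27% and 11.3% in loop of Henle-like cells and 8.47% and 12.1% in proximal tubule-like cells. At 25 to 50% it was 7.97% and 9.52% in loop of Henle-like and 9.55% and 11.5% in proximal tubule-like cells. Among cells with up to 10%, it was 9.70% and 14.5% in endothelial-like and 19.7% and 21.5% in phagocyte-like cells. In proximal tubule-like cells the gap was smallest there, 9.22% (78 cells) and 9.87% (53 cells). Depth also differed, with a median of 1720 UMIs per proximal tubule-like cell in sham and 3258 on day 2 after leaving out mitochondrial ones. The medians of collecting duct principal-like cells were 3627.5 and 7890.5. Among proximal tubule-like cells with 2000 to 5000 such UMIs, the shares were 9.38% and 12.1%. Among collecting duct principal-like cells with 5000 or more, they were 8.54% (20 cells) and 14.4% (39 cells). The nuclear RNA Malat1 held 2.53%, 5.24%, 8.71% and 6.52% of UMIs in proximal tubule-like cells and 7.27%, 5.51%, 12.7% and 12.1% in collecting duct principal-like cells. Leaving it out of the denominator gave day 2 log2 ratios of 0.35 and 0.85.

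Markers of another class also moved with the groups. The 18 mononuclear phagocyte markers summed to 27.4 to 81.8 UMIs per 1000000 non-mitochondrial UMIs (CPM) in the other classes of the sham library, 381 to 644 on day 2, 2072 to 2658 on day 7 and 813 to 1235 after reversal. Inside phagocyte-like cells they summed to between 20835 and 30409. Outside them, between 0 and 13 of the 18 markers were at 0 UMIs in a class and library. The 16 proximal tubule markers summed to 1141 to 1848.5 CPM in other classes in sham, 135 to 299 on day 2, 73.1 to 426 on day 7 and 467 to 988 after reversal. A coarse estimate of free RNA took its profile from the 100 deposited barcodes of lowest depth in each library and its share from markers of other classes. These barcodes were deposited as cells, so the profile can include RNA of shallow cells. The estimate put free RNA at 16.5% to 30.96% of UMIs in tubule-like classes in sham, 11.8% to 15.1% on day 2, 40.8% to 50% on day 7 and 12.6% to 17.01% after reversal. The value of 50% is the highest the estimate allows. It was 8.24%, 5.02%, 24.0% and 8.61% in endothelial-like cells, 8.74%, 27.3% and 11.8% in T cell-like cells, and 3.42% to 7.72% in phagocyte-like cells. Subtracting it gave day 2 log2 ratios of 1.06 in collecting duct principal-like and 0.29 in proximal tubule-like cells.

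Single members followed their class. A member was counted as higher or lower at 1.5-fold on the CPM of a class, over members with at least 30 UMIs in the 2 libraries together, which 81 of 84 passed in most comparisons. In collecting duct principal-like cells 73 of 81 members were at least 1.5-fold higher on day 2 than in sham, against 16.8% of all genes tested, and none lower (18.4% of all genes). In endothelial-like cells 33 of 81 were higher (10.2% of all genes), in loop of Henle-like cells 17 of 81 (12.0%) and in proximal tubule-like cells 4 of 81 (13.9%), with none lower (14.1%, 23.9% and 8.52% of all genes in the same order). In mononuclear phagocyte-like cells 2 of 82 were higher and 1 lower (28.8% and 18.8% of all genes), and in intercalated-like cells 0 were higher and 2 lower (14.8% and 21.8%). The proximal tubule, phagocyte and intercalated counts are thus below the share of all genes. In proximal tubule-like cells this turned with at most 20% mitochondrial UMIs, where 12 of 81 members were higher against 9.05% of all genes. At 2-fold the counts of higher members were 29 in collecting duct principal-like cells (6.60% of all genes) and 1 each in endothelial-like (3.68%) and loop of Henle-like cells (5.52%), so only the first stayed above the share of all genes. The median member lay at a log2 ratio of 0.91 in collecting duct principal-like, 0.54 in endothelial-like, 0.40 in loop of Henle-like, 0.30 in proximal tubule-like, 0.18 in phagocyte-like and -0.06 in intercalated-like cells. The median of all genes tested was -0.03, -0.07, -0.15, 0.06, 0.13 and -0.14 in the same order. With TMM factors, which move the median of all genes to 0.11 in loop of Henle-like, 0.09 in intercalated-like and -0.05 in proximal tubule-like cells, the counts of higher members were 75 in collecting duct principal-like (19.7% of all genes), 57 in endothelial-like (13.6%), 58 in loop of Henle-like (21.6%), 1 in proximal tubule-like (10.8%) and 9 in phagocyte-like cells (32.6%). The median member of intercalated-like cells then had the opposite sign, 0.18.

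**Figure D2:**
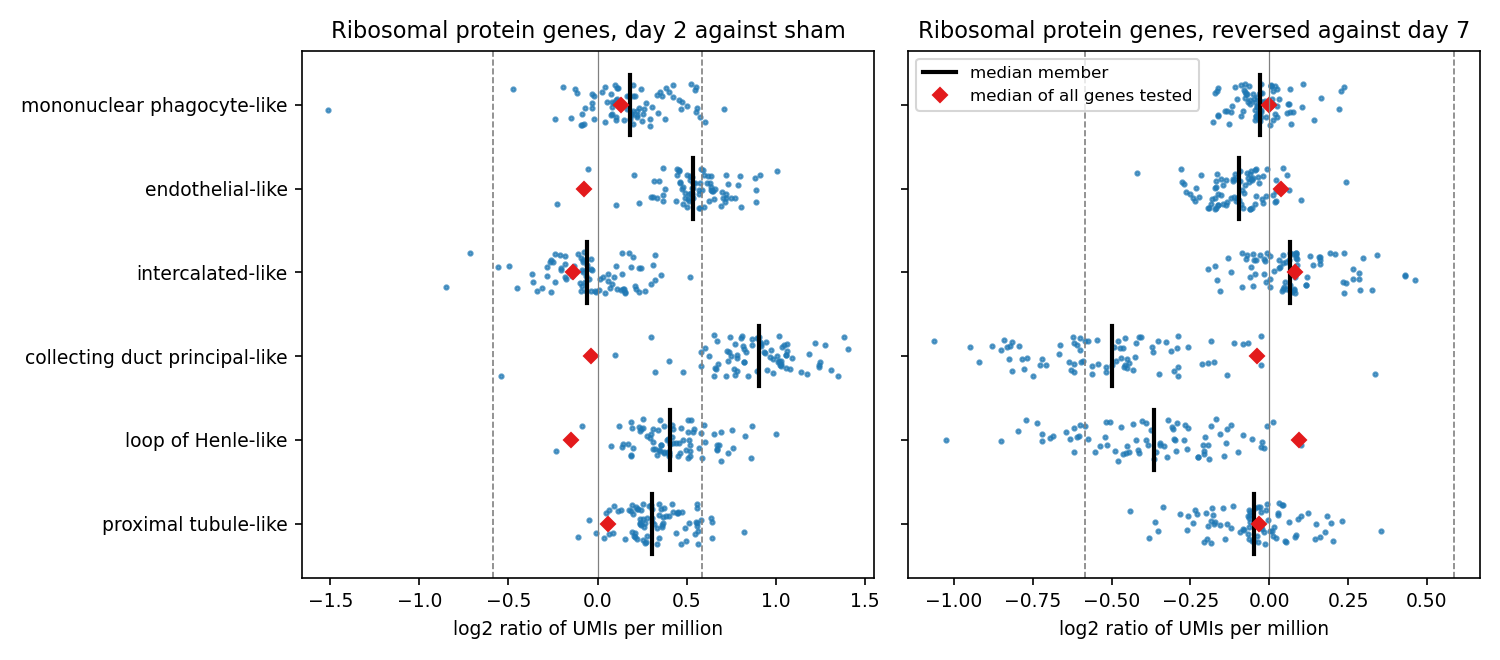
Log2 ratio of CPM (x axis) for each ribosomal protein gene (blue points) in 6 cell classes (rows), day 2 against sham on the left and reversed against day 7 on the right. Black bars mark the median member, red diamonds the median of all genes tested and dashed lines 1.5-fold, and the x axes differ in range; the collecting duct principal-like points lie mostly right of the dashed line on day 2 (73 of 81) and shift left after reversal.

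Many members have near copies elsewhere in the genome, pseudogenes among them, so some reads could belong to another gene. In the last 300 bases of the longest transcript, more than 50% of the 50-base stretches of 39 of the 84 members also occurred in another gene, and none did for 27. Of the members described below, this share was 100% for Rpl10 and Rpl36a, 94.4% for Rps12, 86.9% for Rpl10a, 83.3% for Rps6, 78.1% for Rps2, 76.5% for Rpl3 and 76.1% for Rps3a1. It was 66.9% for Rplp1, 65.3% for Rpl38, 62.9% for Rpl41, 62.2% for Rps4x and 48.6% for Rps29, and the counts of these members are uncertain to that extent. Rplp0, Rpl12, Rps20, Rpl28 and Rps15a had none shared.

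Among the proteins of the large subunit, Rplp0, the stalk base that carries Rplp1 and Rplp2, and Rpl10a stood out in collecting duct principal-like cells. Rplp0 had 734 CPM (sham), 1876 (day 2), 1605 (day 7) and 902 (reversed), a log2 ratio of 1.35 (95% interval 1.13 to 1.58) on day 2. Rpl10a had 457, 1211, 937 and 621, with a log2 ratio of 1.40 (1.12 to 1.69). Both were high in both obstructed libraries and lower in the sham and reversed ones. In the small subunit Rps2, which lines the mRNA entry channel, had 643, 1680, 1244 and 902, with a log2 ratio of 1.38 (1.15 to 1.63). Rpl7l1, a relative of Rpl7 that acts in the making of the large subunit, did not share this course, with 62.1, 42.3, 53.2 and 67.4 CPM from only 17 to 22 UMIs per library. Rps27l was also near level at 672, 719, 707 and 554.

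In proximal tubule-like cells, the reabsorbing cells that make up most of the cortex, Rpl12, Rpl10 and Rps12 were among the 4 members past 1.5-fold on day 2. Rpl12, a protein of the stalk base, had 284, 504, 394 and 356 CPM, with a day 2 log2 ratio of 0.82 (95% interval 0.72 to 0.93). Rpl10, among the last proteins to join the large subunit, had 1393, 2178, 1421 and 1313. Rps12 had 480, 745, 669 and 593. For all 3 the day 2 library was the highest, and Rpl12 and Rps12 were still above sham after reversal. Rps27l instead kept between 1053 and 1142 in the 4 libraries and Rpl36al between 600.0 and 672.

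In endothelial-like cells the members furthest above the median on day 2 were Rps12, Rps20 and Rplp0. Rps12 had 459, 923, 762 and 752 CPM, a log2 ratio of 1.01 (95% interval 0.79 to 1.23) on day 2 against sham. Rps20, whose excess protein is known to bind MDM2, had 657, 1238, 1196 and 1105. Rplp0 had 1095, 2031, 1772 and 1324. Rps12 and Rps20 stayed high on day 7 and after reversal, when 3 members, Rps20, Rps12 and Rpl23, were at least 1.5-fold above sham (17.7% of all genes) and 1, Rpl6l, below (12.0%). In intercalated-like cells the 2 members lower on day 2 were Rpl22l1, with 555, 307, 359 and 379 CPM, and Rplp1, with 2153, 1308, 1492 and 2054. Rps3a1 had the highest day 2 log2 ratio of the set there, 0.52, with 582, 836, 929 and 952.

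In mononuclear phagocyte-like cells Rps2 was among the 2 members past 1.5-fold on day 2. It had 1752 CPM (sham), 2664 (day 2), 1816 (day 7) and 1822 (reversed), a log2 ratio of 0.60 on day 2, and only the day 2 library stood apart. Rps27 ran the other way, with 6284 in sham and 4515, 3980 and 4141 in the later libraries. The 67 phagocyte-like cells in sham limit these values.

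From day 2 to day 7 the share was lower in 6 of 8 classes and higher in loop of Henle-like and intercalated-like cells. T cell-like cells had the largest fall, from 30.7% to 24.3% (log2 ratio -0.34, 95% interval -0.35 to -0.33), and stood at 24.9% after reversal. With at most 20% mitochondrial UMIs the largest fall was that of collecting duct principal-like cells, -0.43, while T cell-like cells had -0.33. With free RNA subtracted the log2 ratio of T cell-like cells was -0.11, and the largest fall was that of phagocyte-like cells, -0.23 in place of -0.26. Under the same setting the rise in loop of Henle-like cells went from 0.10 to 0.38 and that in intercalated-like cells from 0.17 to 0.27. Also with free RNA subtracted, the ratio of injured tubule-like cells turned from -0.12 to 0.16, so that 3 of 8 classes were higher, and that of proximal tubule-like cells went from -0.22 to -0.0087, that of collecting duct principal-like cells from -0.31 to -0.095 and that of endothelial-like cells from -0.25 to -0.14. The sham library held 18 T cell-like cells, too few for comparison, with 21.5%. In T cell-like cells 4 of 81 members were at least 1.5-fold lower on day 7 (5.82% of all genes): Rps27, Rpl6l, Rps29 and Rps28. Rps27 had 10987 CPM on day 2, 6348 on day 7 and 8930 after reversal. Rps28 had 5517, 3115 and 3690. Rps27l had 267, 386 and 248, the highest value on day 7, where Rps27 was lowest. Cycling cells were few, and T cell-like cells without proliferation markers had 31.7%, 26.0% and 26.2%. On day 7 against day 2, 4 members were at least 1.5-fold lower in proximal tubule-like (8.65% of all genes), 7 in collecting duct principal-like (12.8%) and 6 in phagocyte-like cells (9.86%). With at most 20% mitochondrial UMIs the collecting duct principal count was 14 of 81, above the 11.6% of all genes. In loop of Henle-like (9.45%), intercalated-like (8.20%), injured tubule-like (8.63%) and endothelial-like cells (10.2%) 1 member was lower, which was Rpl6l in each. None were higher in any of the 8 classes, against 11.2% to 24.1% of all genes. With median-of-ratios size factors the count of lower members in T cell-like cells was 14 (9.68% of all genes).

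After reversal the share was lower than on day 7 in 6 of 8 classes, by the most in collecting duct principal-like (log2 ratio -0.50) and loop of Henle-like cells (-0.39). With free RNA subtracted it was lower in 8 of 8, and these ratios were -0.89 and -0.74. Under that setting the ratio of proximal tubule-like cells went from -0.047 to -0.34, that of injured tubule-like cells from -0.025 to -0.33 and that of endothelial-like cells from -0.11 to -0.26, while with at most 20% mitochondrial UMIs the ratio of collecting duct principal-like cells was -0.32. Against day 7, 32 of 81 members were at least 1.5-fold lower in collecting duct principal-like cells (15.2% of all genes) and 16 of 81 in loop of Henle-like cells (7.24%), and 1, Rps27l, in T cell-like cells (8.66%). In proximal tubule-like (13.2%), intercalated-like (7.80%), injured tubule-like (5.33%), endothelial-like (4.78%) and phagocyte-like cells (3.16%) there were none, and none were higher in any of the 8 classes, against 6.52% of all genes in phagocyte-like, 6.87% in endothelial-like and more in the others. With median-of-ratios size factors 30 members were lower in loop of Henle-like cells (11.6% of all genes). With at most 20% mitochondrial UMIs, 7 of 81 were lower there (7.16% of all genes) and 12 of 80 in collecting duct principal-like cells (15.0%), which is at or near the share of all genes, while the median member had log2 ratios of -0.30 and -0.31, against 0.08 and -0.02 for all genes. At 2-fold, 1 member was lower in each (1.97% and 4.90% of all genes). Rpl3, which forms part of the peptidyl transferase centre, was lowest relative to day 7 in both tubule classes. It had 574, 1197, 1174 and 561 CPM in collecting duct principal-like cells and 787, 1121, 1621 and 796 in loop of Henle-like cells. In both classes the reversed value was near sham and the day 7 value well above it. Rps4x in collecting duct principal-like cells followed the same course, with 720, 1708, 1346 and 696. Against sham, the reversed share had log2 ratios of 0.04 in proximal tubule-like, 0.06 in collecting duct principal-like, 0.14 in loop of Henle-like, 0.16 in intercalated-like, 0.19 in endothelial-like and -0.14 in phagocyte-like cells. Over the alternative settings, the bands of mitochondrial share and depth apart, these ratios ran from -0.056 to 0.14 in proximal tubule-like, 0.053 to 0.15 in collecting duct principal-like, -0.0060 to 0.39 in loop of Henle-like, 0.11 to 0.34 in intercalated-like, 0.16 to 0.22 in endothelial-like and -0.17 to -0.097 in phagocyte-like cells. The negative proximal tubule value came with free RNA subtracted and the negative loop of Henle value with the median over cells. Within bands, the collecting duct principal-like share was 8.40% after reversal and 7.89% in sham at 10 to 25% mitochondrial UMIs. It was 5.66% and 6.34% at 2000 to 5000 UMIs, and 8.44% and 8.54% at 5000 or more. The sign also differed between bands in proximal tubule-like and loop of Henle-like cells. Phagocyte-like cells had 17.8% and 19.7% at up to 10%, and 13.0% and 17.3% at 2000 to 5000 UMIs. Endothelial-like and intercalated-like cells stayed above sham in each band. The phagocyte ratio compares different mixtures, since C1q macrophage-like cells, whose share was 13.8% in sham and 14.9% after reversal, were 30 of 67 phagocyte-like cells in sham and 406 of 640 after reversal. Between 0 and 3 members in each of these classes were at least 1.5-fold higher than in sham, against 7.17% to 29.2% of all genes. Rpl6l was lower in proximal tubule-like (2.67% of all genes), loop of Henle-like (14.0%) and collecting duct principal-like cells (13.2%), Rps27 and Rpl6l in phagocyte-like cells (15.1%), and none in intercalated-like cells (12.1%). The median member of proximal tubule-like cells, 0.05, had the opposite sign with TMM factors, -0.15. Rps20 was among the members above the class median in all 6 classes, with 588 CPM in sham and 932 after reversal in collecting duct principal-like cells, 697 and 865 in proximal tubule-like and 1137 and 1518 in phagocyte-like cells. The comparisons of day 2 and of the reversed library with sham share the sham library.

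The make-up of the ribosomal protein RNA, given as UMIs per 10000 ribosomal protein UMIs, varied between classes to different degrees. The ratio of the highest to the lowest class mean had a median of 1.41 over 81 members, with 31 members past 1.5-fold and 6 past 2-fold. Droplet UMIs count 1 tag per molecule near the 3′ end, so levels of different members can be set side by side without a length term. Rps27l varied most. It stood at 110 in proximal tubule-like, 73.4 in intercalated-like, 70.1 in collecting duct principal-like, 64.0 in loop of Henle-like, 59.4 in injured tubule-like, 38.0 in endothelial-like, 30.2 in phagocyte-like and 11.5 in T cell-like cells, a 9.55-fold range. The libraries of proximal tubule-like cells had 122, 90.8, 114 and 113, and those of T cell-like cells 8.70, 15.9 and 9.96, so these classes did not overlap. B cell-like cells were lower still, with 3.57 on day 2 and 4.99 after reversal.

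**Figure D3:**
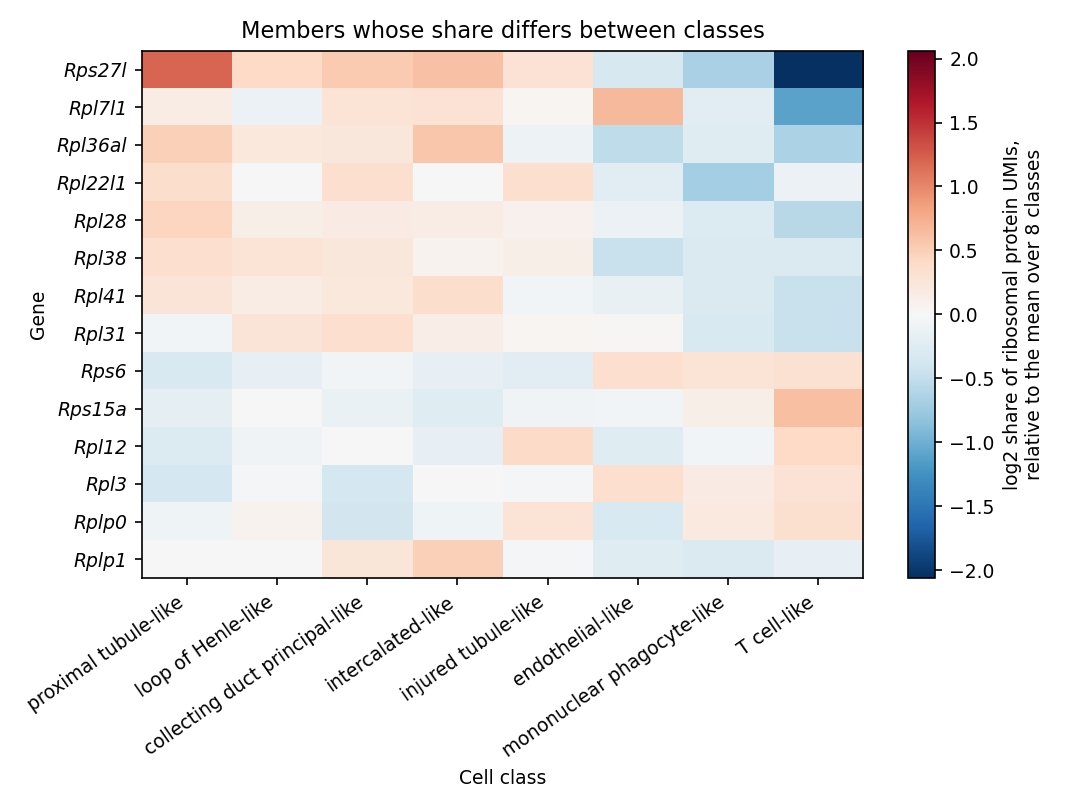
Log2 share of ribosomal protein UMIs of 14 members that differ between classes (rows), relative to the member's own mean over 8 classes (columns). Red is above and blue below that mean; Rps27l runs from the deepest red in proximal tubule-like to the deepest blue in T cell-like cells, a 9.55-fold range.

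Rps27, the partner of Rps27l, had its highest class mean, 326 per 10000, in T cell-like cells. It had 358, 261 and 359 per 10000 in T cell-like cells and 197, 212, 194 and 197 in proximal tubule-like cells. Rps27l made up 38.2%, 29.9%, 37.1% and 36.5% of the UMIs of the pair in proximal tubule-like cells and 2.37%, 5.73% and 2.70% in T cell-like cells. In phagocyte-like cells it made up 6.98% in sham and 13.3%, 13.1% and 11.4% in the later libraries. Rps27l lies on chromosome 9 (66946086 to 66949516, plus strand) and Rps27 on chromosome 3 (90212522 to 90213651, minus strand) in GRCm38. None of the 50-base stretches in the last 300 bases of the Rps27l transcript occurred in another gene, so its reads can be assigned. All of those of Rps27 also occurred in Rps27rt, and its counts are uncertain to that extent.

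Among the other members that varied most were relatives of a main gene. Rpl36al had 71.1, 57.1, 60.1 and 69.6 per 10000 in proximal tubule-like cells and 26.2, 30.5 and 30.2 in T cell-like cells, while its near-identical relative Rpl36a lay between 63.5 and 92.7 in the 8 classes of all libraries. Rpl22l1 had 63.5, 63.5, 70.8 and 53.8 in proximal tubule-like and 28.7, 37.1, 27.5 and 26.8 in phagocyte-like cells, and Rpl22, its partner, stood between 37.8 and 60.7 in the 8 classes of all libraries. Rpl7l1 was low everywhere, with 8.17 in endothelial-like and 2.40 in T cell-like cells. Of the last 300 bases, 68.9% of the 50-base stretches of Rpl36al and 63.3% of those of Rpl22l1 occurred in another gene, so these counts are uncertain, as are those of Rpl36a. Rpl28 had 124 in proximal tubule-like and 61.2 in T cell-like cells. Rpl38, known for roles in the translation of particular mRNAs in development, had 184 and 118, and Rpl41, the smallest ribosomal protein, 413 and 249. Members higher in T cell-like than in proximal tubule-like cells included Rps6, the substrate of S6 kinase, with 154 and 98.8, and Rps15a, with 192 and 109.

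Rpl6l, the processed pseudogene, separated libraries instead of classes. It had 23.3 to 34.3 per 10000 ribosomal protein UMIs over 6 classes in sham, 17.8 to 27.4 over 8 classes on day 2, 11.3 to 13.8 on day 7 and 10.5 to 17.7 after reversal. Every class of the sham and day 2 libraries was above every class of the other 2 libraries, although the gap between 17.8 and 17.7 was small. Rpl6 itself lay between 106 and 138 in all 4 libraries. As a part of the summed UMIs of both genes, Rpl6l made up a median of 17.7% (sham), 15.3% (day 2), 9.26% (day 7) and 10.4% (reversed). Rpl6l lies on chromosome 10 (111125851 to 111126721) and Rpl6 on chromosome 5 (121204481 to 121209241). All 50-base stretches in the last 300 bases of Rpl6l also occurred in Rpl6, while none in the last 300 bases of the longest Rpl6 transcript did. In the Smart-seq2 wells with at least 10000 reads, Rpl6l had 680 reads and Rpl6 115657. Those reads cover whole transcripts, so they are not on the scale of the UMIs. Which gene the UMIs counted as Rpl6l came from was not tested.

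**Figure D4:**
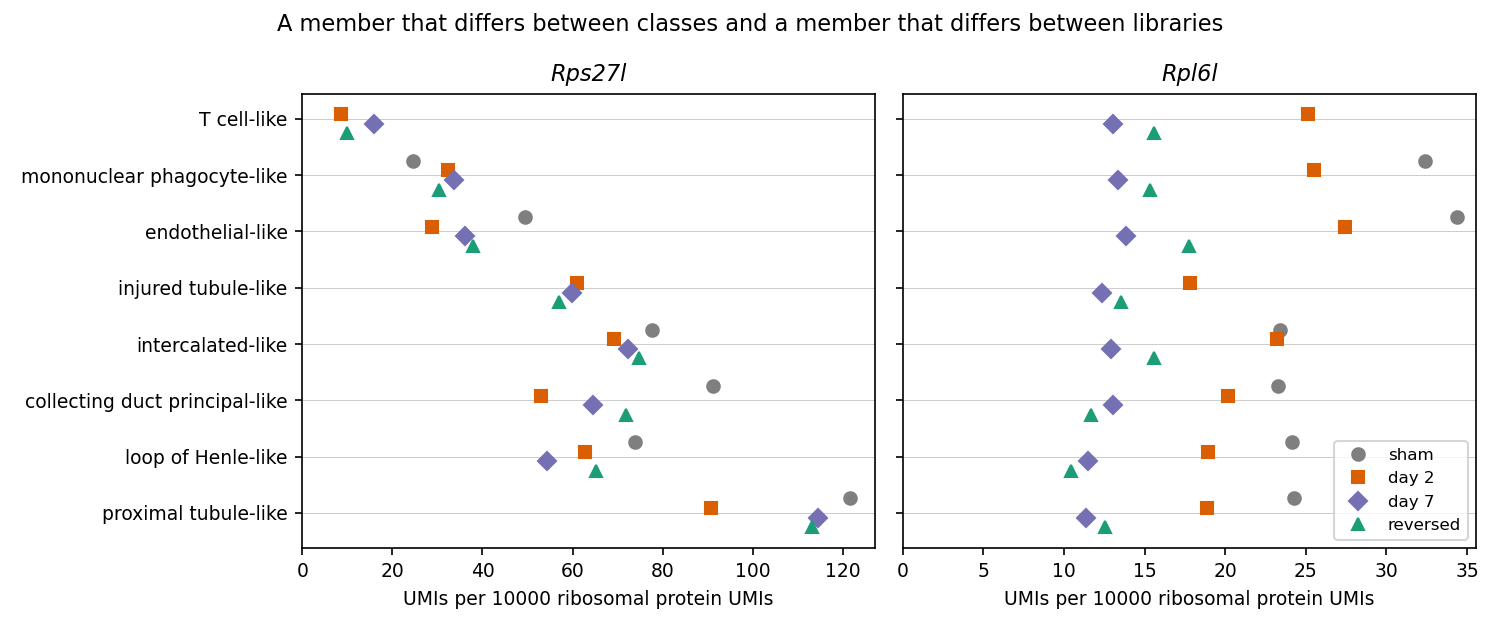
UMIs of Rps27l (left) and Rpl6l (right) per 10000 ribosomal protein UMIs (x axes) in 8 cell classes (rows), 1 symbol per library. Rps27l is ordered by class, from 110 in proximal tubule-like to 11.5 in T cell-like cells, while Rpl6l is ordered by library, with sham and day 2 at 17.8 or more and day 7 and reversed at 17.7 or less in every class.

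Some members were close to absent. Rpl10l, a testis-restricted relative of Rpl10, had 6 UMIs in all kept cells. Rpl39l, a relative of Rpl39 also best known from testis, had 34, with 11 in the 8 classes on day 2, 20 on day 7 and 0 in sham and after reversal. Rpl3l, the heart and skeletal muscle form of Rpl3, had 160. At the other end, the 5 most abundant members, Rpl41, Rps29, Rpl37a, Rps27 and Rps19, gave 13.3% of all ribosomal protein UMIs, and 79 of the 84 had over 30000 UMIs each. The ratio of large to small subunit UMIs was 1.39 to 1.57 in tubule-like classes, 1.33 to 1.38 in endothelial-like and 1.26 to 1.34 in phagocyte-like and T cell-like cells. The tubule values lay above those of both immune classes in every library.

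Within the mononuclear phagocytes the share differed by subclass. C1q macrophage-like cells, with the complement genes C1qa, C1qb and C1qc among their markers, had 13.8% (sham), 21.1% (day 2), 16.6% (day 7) and 14.9% (reversed). Whether these cells were resident or came from monocytes was not tested. The spread of their share was wider than that of the whole phagocyte class (17.5% to 21.4%). Ly6c2-high monocyte-like cells, which enter from blood, had 22.8%, 19.5% and 19.2% in the libraries from day 2 onward. Type 1 conventional dendritic-like cells had 21.7%, 21.1% and 22.6%, and type 2 conventional dendritic-like cells 21.3%, 21.0% and 22.4%. All 3 of these subclasses were above C1q macrophage-like cells in 3 of 3 libraries. Ccr7 dendritic-like cells had 19.5% on day 7. C1q macrophage-like cells had a median of 2256 UMIs in the 30 sham cells and 12438.5 in the 194 cells of day 2. Phagocyte-like cells with proliferation markers had 21.3%, 18.0% and 19.9%, and those without 21.5%, 17.8% and 17.2%, so the 2 kinds of phagocyte-like cell differed by more than 1 percentage point only after reversal.

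**Figure D5:**
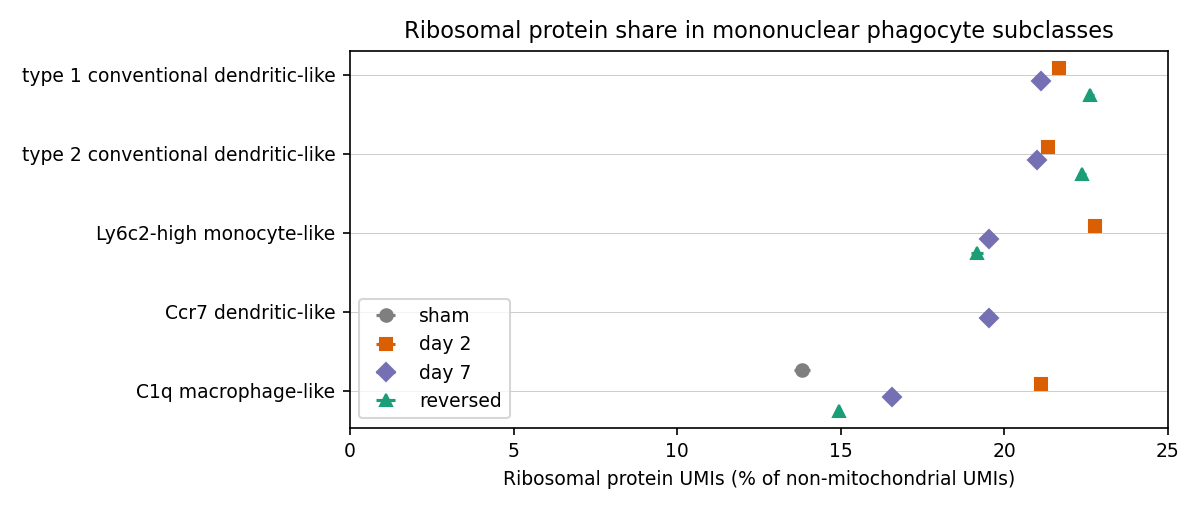
Percentage of non-mitochondrial UMIs from ribosomal protein genes (x axis) in 5 phagocyte subclasses (rows), 1 symbol per library of at least 20 cells, with 95% counting intervals. The C1q macrophage-like row runs from 13.8% in sham to 21.1% on day 2, and both conventional dendritic-like rows stay between 21.0% and 22.6%.

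Other genes of the translation apparatus, from lists of 4 to 77 genes, gave a mixed picture. The ribosomal subunit proteins that the symbol rule misses, among them Rpsa, Fau and Gnb2l1 (the scaffold protein RACK1), were all at least 1.5-fold higher on day 2 in collecting duct principal-like cells, 4 of 4. In endothelial-like cells 2 of 4 were higher, in loop of Henle-like cells 1, and in proximal tubule-like, phagocyte-like and intercalated-like cells 0, with 1 lower in the last (21.8% of all genes). Of all genes, 16.8% were higher in collecting duct principal-like, 10.2% in endothelial-like, 12.0% in loop of Henle-like, 13.9% in proximal tubule-like, 14.8% in intercalated-like and 28.8% in phagocyte-like cells. Among 6 elongation factors, 4 were higher in collecting duct principal-like, 4 in endothelial-like, 2 in proximal tubule-like, 2 in phagocyte-like, 1 in loop of Henle-like and 1 in intercalated-like cells on day 2, and none lower. Eef1a1, which brings aminoacyl-tRNA to the ribosome and is itself a TOP mRNA, had 0.171%, 0.339%, 0.247% and 0.158% of UMIs in collecting duct principal-like cells, and 0.230%, 0.364%, 0.265% and 0.225% in proximal tubule-like cells. Of 12 other TOP or ribosome-associated genes, 8 were higher in collecting duct principal-like cells, 5 in endothelial-like, 4 in loop of Henle-like, 3 in intercalated-like and phagocyte-like and 2 in proximal tubule-like cells, and none lower. The phagocyte count was below and the proximal tubule count near the share of all genes. Npm1, a nucleolar chaperone, had 0.0230%, 0.0572%, 0.0457% and 0.0281% in collecting duct principal-like cells.

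Ribosome biogenesis factors had their largest count in phagocyte-like cells. Of 20, 15 were at least 1.5-fold higher and 1 lower on day 2 in phagocyte-like cells, where 28.8% of all genes were higher and 18.8% lower, and their median log2 ratio was 0.81, against 0.18 for the ribosomal proteins. The filter summed both libraries, and phagocyte-like cells had 237422 non-mitochondrial UMIs in sham and 5895005 on day 2. Genes of low level thus passed mainly through day 2 and rest on few sham UMIs, unlike most ribosomal proteins, so the 2 medians are not on equal footing. From day 2 to day 7, 8 of the 20 factors were lower in phagocyte-like cells (9.86% of all genes). In collecting duct principal-like cells, where only 6 of the 20 had enough UMIs, 2 were higher on day 2 and 0 lower, with a median log2 ratio of 0.41. In loop of Henle-like cells 3 of 15 were higher and 2 lower (median 0.27), in intercalated-like cells 2 of 12 and 2, in endothelial-like cells 0 of 16 and 1, and in proximal tubule-like cells 0 of 20 and 0. The share of all genes that were lower was 23.9%, 21.8%, 14.1% and 8.52% in the same order, and 18.4% in collecting duct principal-like cells. The difference between classes was not tested. Ncl, which binds ribosomal RNA precursors, had 0.0181%, 0.0373%, 0.0311% and 0.0325% of UMIs in phagocyte-like cells. The mitochondrial ribosomal proteins, which serve translation inside mitochondria, had median log2 ratios of 0.02 in collecting duct principal-like, -0.13 in endothelial-like, -0.15 in loop of Henle-like, -0.20 in proximal tubule-like, -0.52 in intercalated-like and 0.41 in phagocyte-like cells on day 2. In intercalated-like cells 32 of 72 were at least 1.5-fold lower, against 21.8% of all genes. In phagocyte-like cells 27 of 76 were higher, against 28.8% of all genes, which is close to the background.

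The Smart-seq2 wells gave a separate reading of the same genes, with no time point assigned to a well. Reads of all 84 members were found, 7112808 in all. In the 533 of 768 wells with at least 10000 reads, the ribosomal protein share had a median of 2.81% (quartiles 2.05% and 3.84%), and plate medians ran from 2.21% to 3.72%. Its reads cover whole transcripts and carry no UMIs, so this share weights long genes and is not on the same scale as the droplet values. The members with the most reads were Rplp0, with 370277, and Rpl4, with 341244, while Rpl41 and Rps29, which code for very short proteins, led in the droplet libraries.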

How the data were processed

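Deposited values were raw counts: UMIs for each gene in each cell of 4 droplet libraries, and reads for each gene in each well of 1 Smart-seq2 table. The submitters' processing notes name Cell Ranger, STAR, GRCm38 and mm10 with no roles or versions, and the table's name alone points to featureCounts. How cells were called and how reads that fit several genes were treated is not given in the sources used here. The members, gene lists and comparisons were chosen with earlier results of these data known.

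Kept cells had 200 or more detected genes and no more than 50% mitochondrial UMIs. Each marker's log UMIs per 10000 were scaled to its percentile 95, and a class score was the mean of the 4 highest. A class needed 3 markers, a score over 0.2 and 1.5 times the next class (tubule classes were not set against each other). Other cells were left out, and no doublet caller was run. UMIs were summed per class and library where at least 20 cells were present. Ratios used UMIs scaled to 1000000 non-mitochondrial UMIs (CPM) and a pseudocount of 1, with a threshold of 1.5-fold over genes with at least 30 UMIs. Classes were compared within libraries by an exact sign-flip test. Named members were the 5 highest and 5 lowest, all paralogue pairs, the 3 furthest above and below the median member in 4 main classes, and the 5 that vary most between classes. Members singled out beyond these, such as those of other tubule classes, were chosen after their values were seen. Shared sequence was counted as 50-base stretches in the last 300 bases of each gene's longest transcript, searched in all transcripts of other genes, in the GENCODE M21 annotation of GRCm38. The 93 rows of the Smart-seq2 table that name no gene stayed out of its totals. Alternatives used edgeR 4.0.16 (TMM) and DESeq2 1.42.0 (size factors). Tables were handled with pandas 2.3.3 and numpy 2.4.6 under Python 3.11.15, tests were run with scipy 1.17.1 and plots drawn with matplotlib 3.10.9. Some members are not reported here. The ratio step was tested on simulated data.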

Additional observations from a re-analysis of the deposited data

Results flagged for a closer look

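In each comparison most classes moved in 1 direction, and the following classes moved in the other with a counting interval that excluded 0. The differences between classes were not tested, since each group was 1 library. On day 2 against sham the ribosomal protein share of intercalated-like cells had a log2 ratio of -0.073, while 5 classes were higher. On day 7 against day 2 loop of Henle-like cells had 0.10 and intercalated-like cells 0.17, while 6 classes were lower. With free RNA subtracted these were 0.38 and 0.27, and 5 classes were lower. After reversal, against day 7, intercalated-like cells had 0.070 and T cell-like cells 0.033, while 6 classes were lower. With that subtraction these were -0.0095 and -0.19, and the intercalated-like value was also negative with all UMIs (-0.036) and without the 50 most abundant other genes (-0.033). Against sham, the reversed library had -0.14 in mononuclear phagocyte-like cells, while 5 classes were higher, although their C1q macrophage-like cells had 13.8% in sham and 14.9% after reversal.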

How the results depend on the processing

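Settings chosen after seeing the data were the removal of Malat1 from the denominator, the bands of mitochondrial share and depth, and thinning within phagocyte subclasses. The number of classes with a higher share on day 2 than in sham (5 of 6) was 3 of 3 with at most 20% mitochondrial UMIs, since only 3 classes then held enough sham cells, and for the reversed library against sham it was 2 of 3 in place of 5. Against day 7, the reversed library was higher in 1 class in place of 2 with all UMIs or without the 50 most abundant other genes, and in 0 with free RNA subtracted, but in 3 with the median over cells or thinned to 1000 UMIs, when proximal tubule-like cells had 0.025 and 0.0045. Against sham it was higher in 4 with the median over cells or free RNA subtracted, and day 7 was above day 2 in 3 in place of 2 with free RNA subtracted.

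The day 2 log2 ratio of the share was 0.41 (20% limit), 0.50 (all UMIs), 0.40 (without the 50 genes), 0.33 (median over cells), 0.29 (free RNA), 0.33 (thinned to 1000 UMIs) and 0.35 (without Malat1) in proximal tubule-like cells. In loop of Henle-like cells it was 0.70 (all UMIs), 0.59 (without the 50 genes), 0.41 (median over cells), 0.46 (stricter gate), 0.49 (free RNA) and 0.41 (thinned). In collecting duct principal-like cells it was 1.06 (all UMIs), 0.77 (median), 1.06 (free RNA), 0.75 (thinned) and 0.85 (without Malat1), and in endothelial-like cells 0.47 (median) and 0.53 (thinned). In phagocyte-like cells it was 0.14 (20% limit), 0.18 (all UMIs), 0.014 (without the 50 genes), 0.32 (median), 0.11 (free RNA), 0.32 (thinned) and 0.13 (without Malat1). In intercalated-like cells it was positive with all UMIs (0.14) and without the 50 genes (0.14), and otherwise -0.14 (median), -0.15 (free RNA), -0.15 (thinned) and -0.013 (without Malat1).

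For sums over classes, a member was counted once in each class where it passed the fold, so the sums can exceed the 84 members. On day 2 against sham the sum was 129 higher, 73 of them in collecting duct principal-like cells, and 3 lower. By class, 10.2% to 28.8% of all genes were higher and 8.52% to 23.9% lower. The counts were 202 higher with TMM factors (10.8% to 32.6% of all genes), and 31 higher and 1 lower at 2-fold (3.68% to 17.4% and 2.86% to 8.99%). With the 20% limit it was 48 and 1 over the 3 classes that kept enough sham cells (9.05% to 29.7% of all genes higher), where the setting used gave 39 and 1 (10.2% to 28.8%). Day 7 against day 2 had 0 higher (11.2% to 24.1% of all genes), or 5 with no filter (15.9% to 36.8%). With the 20% limit 1 was higher (13.2% to 23.7%), and with the stricter gate 1 (11.1% to 24.1%). On day 7, 25 were lower (5.82% to 12.8% of all genes), or 42 with median-of-ratios size factors (9.68% to 13.2%) and 4 at 2-fold (1.60% to 3.21%). Reversed against day 7 had 0 higher (6.52% or more of all genes in every class), or 3 with no filter (6.97% to 27.1%). After reversal, 49 were lower than on day 7 (3.16% to 15.2% of all genes), or 21 with the 20% limit (3.20% to 15.0%) and 2 at 2-fold (0.712% to 4.90%). Reversed against sham had 9 higher (7.17% to 29.2% of all genes), or 0 at 2-fold (1.64% to 17.4%). With the 20% limit 3 were higher over 3 classes (14.2% to 30.3%), as without the limit in these 3 (17.3% to 29.2%). In this comparison 6 were lower (2.67% to 15.1% of all genes), or 2 at 2-fold (0.468% to 5.27%). Rpl6l in collecting duct principal-like cells, lower after reversal than on day 7, had a log2 ratio of 0.11 with the 20% limit. Class pairs with 1 direction in every library numbered 23 of 28 without sham, and 11 to 12 of 15 without each of the other libraries, when only 15 pairs had 3 libraries.

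No paired analysis was possible because each group is 1 library, so no replicate number joins samples. The causes of these shifts were not tested beyond this, and low cell numbers in sham (1 injured tubule-like, 18 T cell-like, 42 intercalated-like, 67 phagocyte-like and 68 collecting duct principal-like cells) limit these classes most.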

Other observations

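Within single libraries, the ribosomal protein share of a cell and its mitochondrial share had a Spearman rho between -0.81 and 0.25 over the 30 combinations of the 8 main classes with a library, and the share and the depth of a cell one between -0.20 and 0.70. The values of -0.81 and 0.70 were both those of collecting duct principal-like cells on day 2, where the share was furthest above sham. The points of each value are cells of 1 library, which share their depth and free RNA, so these are descriptions. Cells that carried markers of several classes had 10.4%, 14.0%, 13.7% and 12.8% ribosomal protein UMIs in the order of the libraries. Distal convoluted tubule-like cells, with fewer than 20 cells in each library, had 6.21% in sham and 6.59% after reversal.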
